A study of Mus musculus with 4 samples.

Results

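The 10 genes described here take part in efferocytosis, the engulfment of dying cells by phagocytes. They were chosen by role: the receptor tyrosine kinases Tyro3, Axl and Mertk (the TAM receptors), the bridging molecules Gas6, Pros1 and Mfge8, the phosphatidylserine receptor Timd4, the receptors Lrp1 and Msr1, and the cholesterol exporter Abca1. All 10 were among the 31053 genes listed for each of 4 single-cell RNA libraries from the mouse carotid artery, and each gave at least 25 UMIs (unique molecular identifiers, which count captured transcript molecules) in the cells kept.

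The series follows wire injury, in which a guide wire is passed through the left carotid. The deep form used here strips the endothelium and also disrupts the internal elastic lamina. The mice were male C57BL/6 animals with no transgene named, 11 weeks old before injury. There was 1 library for each of 4 groups: arteries before injury (day 0) and arteries 3, 7 and 14 days after injury. Each library pooled arteries of several animals, thrombosed vessels were discarded, and the same digestion and dead-cell removal are given for all groups, day 0 included. With 1 library per day nothing could be tested between days, so the intervals below are 95% counting intervals, which cover the sampling of molecules only and not the variation between animals.

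A dying cell exposes phosphatidylserine on its surface. Gas6 and Pros1 bind this lipid and bridge it to the TAM receptors, Gas6 to all of them and Pros1 to Tyro3 and Mertk, whereas Mfge8 bridges it to integrins. Timd4 binds the lipid directly, Lrp1 and the scavenger receptor Msr1 recognise other ligands on the dying cell, and the cholesterol taken up leaves the phagocyte through Abca1. In arteries these genes are best known from macrophages of atherosclerotic plaques, and Axl and Gas6 were also described in smooth muscle cells.

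The libraries held 6161 barcodes and between 2672722 UMIs (day 0) and 27973418 UMIs (day 7), and 5408 cells were kept, namely 281, 1405, 2693 and 1029 from day 0 to day 14. Their median depth was 7959, 5458, 6317 and 10764 UMIs. The libraries were not fully separate, since 217 barcodes occurred in more than 1 of them, 152 of these in days 0 and 3 and 64 in days 7 and 14. In nearly all such pairs one copy was deep and the other held at most 10% of its UMIs, and the 214 shallow copies were removed: 48 from day 0, 104 from day 3 and 62 from day 14. Keeping them changed none of the 16 calls of these genes in the 9 main comparisons and added none.

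Cells were clustered without the 10 genes and given a class from marker genes. The monocyte/macrophage-like class held 3, 510, 812 and 162 cells on days 0, 3, 7 and 14, and its day 0 cells were too few to use. The fibroblast-like class held 195, 112, 210 and 494 cells, and the smooth muscle-like class 12, 95, 65 and 77. The day 0 library, although from the carotid, was thus mostly fibroblast-like. Dendritic-like cells numbered 159, 372 and 43 after injury and none before, and endothelial-like cells 6, 40, 55 and 19. All 10 monocyte/macrophage markers were detected in the monocyte/macrophage-like class on days 3, 7 and 14, summing to between 15463 and 15941 CPM (UMIs per 1000000 UMIs of the class and day). T cell-like cells served as the background level, although a low level of their own cannot be told apart from background. A further 773 cells (14.3%) stayed unnamed.

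Levels are the UMIs of a gene summed over the cells of a class and day, as CPM of that class and day. They were compared for 1 gene at a time, because the size of a 3′ count does not rank genes against each other.

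**Figure D1:**
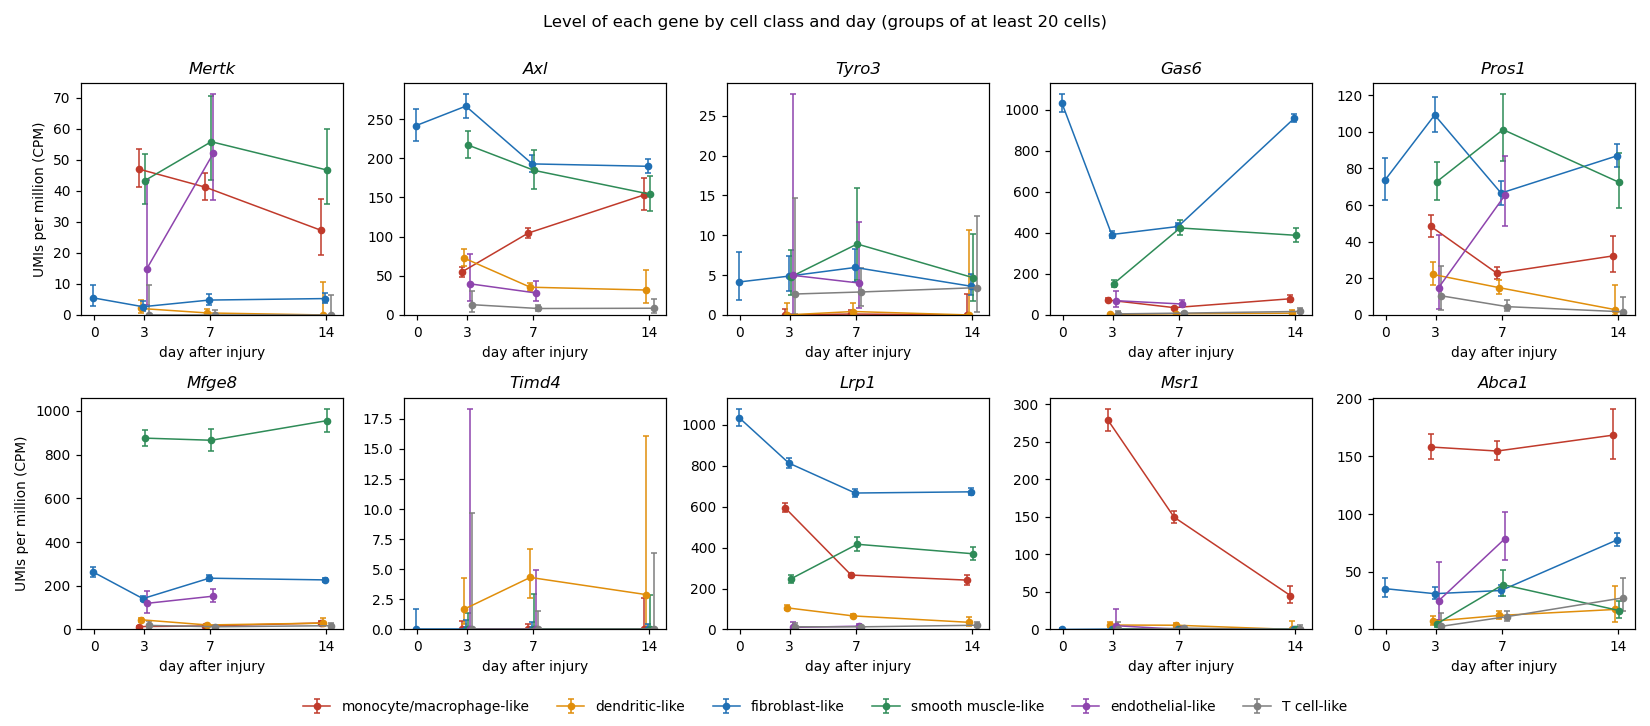
Level of each of the 10 genes in CPM (vertical axis, linear, own scale for each panel) on days 0, 3, 7 and 14 (horizontal axis) in 6 cell classes with at least 20 cells on that day; bars are 95% counting intervals. Gas6 and Lrp1 were highest in fibroblast-like cells on days 0, 3 and 14, Mfge8 stood at 866 CPM or more in smooth muscle-like cells on days 3, 7 and 14, and Msr1 stood at 45.2 CPM or more in monocyte/macrophage-like cells.

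Mertk, the TAM receptor most closely tied to clearance by macrophages, gave 1087 UMIs and was seen in 598 of the 5408 cells. In monocyte/macrophage-like cells its level was 47.0 CPM (41.3 to 53.4) on day 3, 41.2 (37.1 to 45.7) on day 7 and 27.2 (19.3 to 37.4) on day 14. In smooth muscle-like cells it was 43.3 CPM (35.9 to 51.9), 55.9 (43.5 to 70.7) and 46.7 (35.6 to 60.1) on the same days. The classes did not differ beyond counting error on day 3 (macrophage to smooth muscle ratio 1.09, 0.867 to 1.36), and on day 14 the smooth muscle-like level was the higher by 1.71-fold (1.12 to 2.64). Before injury the 12 smooth muscle-like cells held 10 Mertk UMIs, or 100 CPM (48.2 to 185), against 5.52 CPM in fibroblast-like cells, a ratio of 18.2 (7.05 to 46.0). The smooth muscle-like level differed with depth: cells over 30000 UMIs and the others held 38.5 and 64.1 CPM on day 3, 22.8 (12.8 to 37.7) and 93.4 (70.1 to 122) on day 7, and 49.0 and 45.5 on day 14. Monocyte/macrophage markers in the smooth muscle-like cells summed to at most 93.9 CPM on any day. Fibroblast-like cells stayed at 5.52 CPM or less throughout, and T cell-like cells had no Mertk UMI on any day, which on day 7 allows at most 1.24 CPM. Endothelial-like cells gave 39 UMIs on day 7, or 52.1 CPM (37.0 to 71.2), within counting error of both smooth muscle-like and monocyte/macrophage-like cells, but only 3 and 1 UMIs on days 3 and 14. The 55 endothelial-like cells of day 7 had a median of 1706 UMIs but 748683 in all, so some were far deeper. The part of such cells in this level was not tested.

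The cells that supplied Mertk to the whole library therefore changed with the day. Monocyte/macrophage-like cells held 61.4% of its UMIs on day 3, 68.5% on day 7 and 26.0% on day 14, while making up 28.1%, 33.1% and 10.7% of all kept UMIs. Smooth muscle-like cells held 30.2%, 13.1% and 41.1% of them with 15.0%, 4.67% and 9.87% of all UMIs. Fibroblast-like cells held 52.2% of them before injury (12 of 23 UMIs) and 32.2% on day 14, with 83.4% and 68.3% of all UMIs, and 3.07% and 5.50% on days 3 and 7. Monocyte/macrophage-like cells were 30.2% of the cells on day 7 and 15.7% on day 14, at median depths of 9814 and 8218 UMIs.

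Axl, the TAM receptor that only Gas6 binds, was spread more widely, with 7869 UMIs in 1795 cells. Fibroblast-like cells stood at 242 CPM (222 to 263) on day 0, 267 (252 to 282) on day 3, 193 (182 to 204) on day 7 and 190 (181 to 199) on day 14. Smooth muscle-like cells were close to them, at 181 CPM, 217, 185 and 154, and did not differ from them beyond counting error on days 0 and 7 (fibroblast to smooth muscle ratio 1.34, 0.838 to 2.27, and 1.04, 0.906 to 1.21). Monocyte/macrophage-like cells held 54.9 CPM (48.6 to 61.7) on day 3, 105 (97.9 to 112) on day 7 and 153 (134 to 175) on day 14, an ascending series of levels that do not overlap. On day 3 they lay below dendritic-like cells (72.7 CPM, 62.3 to 84.4), whereas by day 14 they did not differ from smooth muscle-like cells beyond counting error (ratio 1.00, 0.824 to 1.22). Dendritic-like cells held 35.4 CPM (30.2 to 41.3) on day 7 and 31.8 (15.9 to 56.9) on day 14. Of their 174 Axl UMIs on day 3, 81 lay in 5 of the 159 cells. Without the top 5 cells of each class the day 3 order turned, at 41.1 CPM in dendritic-like and 45.9 in monocyte/macrophage-like cells. After each dendritic-like cell was thinned to 1000 UMIs the share with Axl was 1.27% (0.154 to 4.50) on day 3 and 3.28% (1.71 to 5.66) on day 7. T cell-like cells held at most 13.1 CPM.

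Tyro3, the remaining TAM receptor, was scarce, with 164 UMIs in 145 cells. It lay between 3.60 and 5.96 CPM in fibroblast-like cells and between 4.67 and 8.91 CPM in smooth muscle-like cells after injury, and was not detected in the 12 smooth muscle-like cells of day 0. Monocyte/macrophage-like cells gave 1 Tyro3 UMI in all, on day 7. T cell-like cells stood at 2.63, 2.88 and 3.43 CPM after injury. Their intervals overlap those of fibroblast-like and smooth muscle-like cells on each of these days, which does not settle whether the levels differ. Monocyte/macrophage-like cells of day 7 held less, at 0.114 CPM from that 1 UMI, beside 5.96 CPM in fibroblast-like and 8.91 in smooth muscle-like cells.

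Gas6, the ligand of all TAM receptors, was mostly a fibroblast transcript, with 17915 UMIs in 1627 cells. Fibroblast-like cells held 1033 CPM (991 to 1077) before injury, 392 (374 to 411) on day 3, 431 (415 to 448) on day 7 and 959 (939 to 980) on day 14. In all fibroblast-like cells together the 2 middle days stood below the first and the last. In those of up to 30000 UMIs day 7 did too, but day 3 did not, at 1056 CPM (972 to 1144). Smooth muscle-like cells held 281 CPM (187 to 406), 153 (138 to 168), 424 (389 to 462) and 388 (355 to 424) from day 0 to day 14, and on day 7 lay within counting error of the fibroblast-like level (fibroblast to smooth muscle ratio 1.02, 0.926 to 1.12). In cells of up to 30000 UMIs the fibroblast-like level of that day was the higher, 647 CPM (602 to 694) against 450 (397 to 508). On days 0, 3 and 14 the fibroblast-like level was higher, by 3.67-fold (2.54 to 5.54), 2.57-fold (2.31 to 2.86) and 2.47-fold (2.26 to 2.71). Monocyte/macrophage-like cells held 72.9 CPM (65.7 to 80.7), 35.7 (31.9 to 39.9) and 78.9 (64.8 to 95.1) after injury, above the 5.26 to 17.1 CPM of T cell-like cells on those days. Fibroblast-like cells contributed 97.5% of all Gas6 UMIs on day 0, 65.6% on day 3, 70.8% on day 7 and 92.4% on day 14.

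Gas6 and Axl are a ligand and its receptor whose levels ran opposite to each other between 2 fibroblast-like clusters described below, so the promoter of each is printed, from 250 bases before to 50 after the annotated start in RefSeq, build GRCm38.p6, read 5′ to 3′ on the gene's strand. Capitals mark the letters GGGCGG or their complement CCGCCC, the core of a GC box.
Gas6 promoter, chr8:13494486-13494785, minus strand: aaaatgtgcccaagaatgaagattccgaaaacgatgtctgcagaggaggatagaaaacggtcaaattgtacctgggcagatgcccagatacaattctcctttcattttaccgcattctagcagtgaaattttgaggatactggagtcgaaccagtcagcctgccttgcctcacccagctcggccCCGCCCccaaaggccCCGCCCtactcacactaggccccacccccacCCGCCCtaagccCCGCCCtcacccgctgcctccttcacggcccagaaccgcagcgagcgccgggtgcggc
Axl promoter, chr7:25788684-25788983, minus strand: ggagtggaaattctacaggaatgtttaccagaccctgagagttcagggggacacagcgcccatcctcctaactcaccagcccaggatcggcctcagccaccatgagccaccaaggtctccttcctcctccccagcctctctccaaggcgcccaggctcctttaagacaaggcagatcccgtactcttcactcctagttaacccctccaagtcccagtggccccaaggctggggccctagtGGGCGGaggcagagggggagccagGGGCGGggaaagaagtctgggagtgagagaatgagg

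The Gas6 promoter held 4 of these GC boxes and 17 CpG dinucleotides, the Axl promoter 2 and 6, beside a median of 7 CpG over all 32851 promoters of the table. Of the 9 members with an entry, 8 held a GC box on either strand, beside 35.7% of all promoters, and Timd4 held none. The letters TGANTCA (AP-1), GAGGAAGT (an ETS core) and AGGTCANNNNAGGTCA (a direct repeat of the kind bound by liver X receptors) were in none of the 9 on either strand, and occur in 7.81%, 3.20% and 0.0152% of all promoters. Only these exact letters were searched, so repeats that differ in some letters were not looked for. The direct repeat is so rare that its absence from 9 promoters says nothing about the members, Abca1 included. These matches describe letters in a window and show no binding.

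Pros1, or protein S, which bridges to Tyro3 and Mertk and is also an anticoagulant, differed less between classes. Fibroblast-like cells held 73.5 CPM (62.6 to 85.9), 109 (99.7 to 119), 66.6 (60.2 to 73.4) and 86.9 (80.9 to 93.3) from day 0 to day 14. Smooth muscle-like cells held 72.7 CPM (62.9 to 83.6) on day 3, 101 (84.2 to 121) on day 7 and 72.4 (58.4 to 88.7) on day 14, with 2 UMIs before injury. The order of these classes turned between days, fibroblast-like cells being the higher on day 3, with no overlap of the intervals, and smooth muscle-like cells on day 7 (1.52-fold, 1.23 to 1.86). Monocyte/macrophage-like cells were lower, at 48.4 CPM (42.6 to 54.8), 22.7 (19.7 to 26.1) and 32.3 (23.5 to 43.2).

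Mfge8, or lactadherin, bridges phosphatidylserine to integrins and was highest in smooth muscle-like cells on every day. They held 683 CPM (530 to 866), 875 (840 to 911), 866 (814 to 919) and 956 (903 to 1011) from day 0 to day 14. Fibroblast-like cells came next in each library, at 263, 141, 234 and 227 CPM, so that smooth muscle-like cells exceeded them by 2.60-fold (1.99 to 3.34) before injury and by 6.20-fold (5.68 to 6.78), 3.69-fold and 4.22-fold after it. On day 3 smooth muscle-like cells held 70.5% of all Mfge8 UMIs. In monocyte/macrophage-like cells Mfge8 was near background, with 13.1 CPM on day 3 beside 18.4 in T cell-like cells, 15.9 beside 12.4 on day 7 and 29.4 beside 17.1 on day 14, and on days 3 and 7 the ratio of these classes lay within counting error.

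Timd4, a phosphatidylserine receptor of resident macrophages, was not detected in monocyte/macrophage-like cells, where 0 UMIs allow at most 0.588 CPM on day 3, 0.342 on day 7 and 2.15 on day 14. All 25 Timd4 UMIs came from 6 dendritic-like cells. Of these UMIs 4 lay in 1 cell on day 3, 20 in 4 cells on day 7 and 1 in 1 cell on day 14, and 24 of them in the dendritic-like cluster led by Cd209a and Clec10a. The day 7 level of the class was 4.32 CPM (2.64 to 6.68).

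Lrp1, a large endocytic receptor that also takes up lipoproteins and matrix proteases, was the most widely detected of the genes, with UMIs in 2947 cells (54.5%). Fibroblast-like cells held 1035 CPM (993 to 1079), 813 (787 to 840), 666 (646 to 687) and 672 (655 to 690) from day 0 to day 14, and led the classes on each day. Monocyte/macrophage-like cells held 595 CPM (574 to 617) on day 3, 266 (255 to 277) on day 7 and 241 (216 to 268) on day 14. Smooth muscle-like cells held 301 CPM (203 to 430), 247 (229 to 266), 416 (381 to 454) and 370 (337 to 404). Monocyte/macrophage-like cells were thus the second class on day 3, 2.41-fold (2.22 to 2.63) above smooth muscle-like cells, and the lower of the 2 on day 7, when smooth muscle-like cells were 1.57-fold (1.42 to 1.72) above them. T cell-like cells lay between 12.8 and 20.6 CPM.

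Msr1, scavenger receptor A, was a monocyte/macrophage-like transcript. That class held 94.1%, 89.4% and 85.1% of its UMIs on days 3, 7 and 14. Its level there was 279 CPM (265 to 294) on day 3, 149 (141 to 158) on day 7 and 45.2 (34.7 to 57.8) on day 14, each below the one before with no overlap. Neutrophil-like cells came next on day 7 with 21.6 CPM, and fibroblast-like and smooth muscle-like cells stayed below 1 CPM on each day, except that the 0 UMIs of the 12 smooth muscle-like cells of day 0 allow up to 30.1 CPM.

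Abca1, which loads cholesterol onto apolipoproteins, was level in monocyte/macrophage-like cells, at 158 CPM (147 to 169), 155 (147 to 163) and 168 (148 to 191). Fibroblast-like cells held 35.4 CPM (27.9 to 44.2) on day 0, 31.0 (26.1 to 36.6) on day 3, 33.8 (29.3 to 38.7) on day 7 and 77.7 (72.0 to 83.7) on day 14. In those of up to 30000 UMIs the later levels were 50.1 CPM, 54.7 (42.3 to 69.6) and 82.7 (76.3 to 89.6), with day 7 already 1.55-fold above day 0 (1.10 to 2.18). Smooth muscle-like cells gave no Abca1 UMI before injury, which in 12 cells allows up to 30.1 CPM, then 4.77, 38.9 (28.7 to 51.5) and 16.3 CPM. Endothelial-like cells reached 309 CPM on day 14 from 15 UMIs, and in these 19 cells the 10 monocyte/macrophage markers summed to 4558 CPM, with Ly6c2 at 0, against 104 and 143 CPM on days 3 and 7. The part of those markers in the Abca1 value was not tested.

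Days were compared within a class by the ratio of levels with 10 CPM added to each. A gene was called past 2-fold where this ratio was at least 2 or at most 0.5 and the counting interval of the plain ratio excluded 1, among genes with at least 20 UMIs over both days. The comparisons of a class with day 3, or with day 0, share that library.

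**Figure D2:**
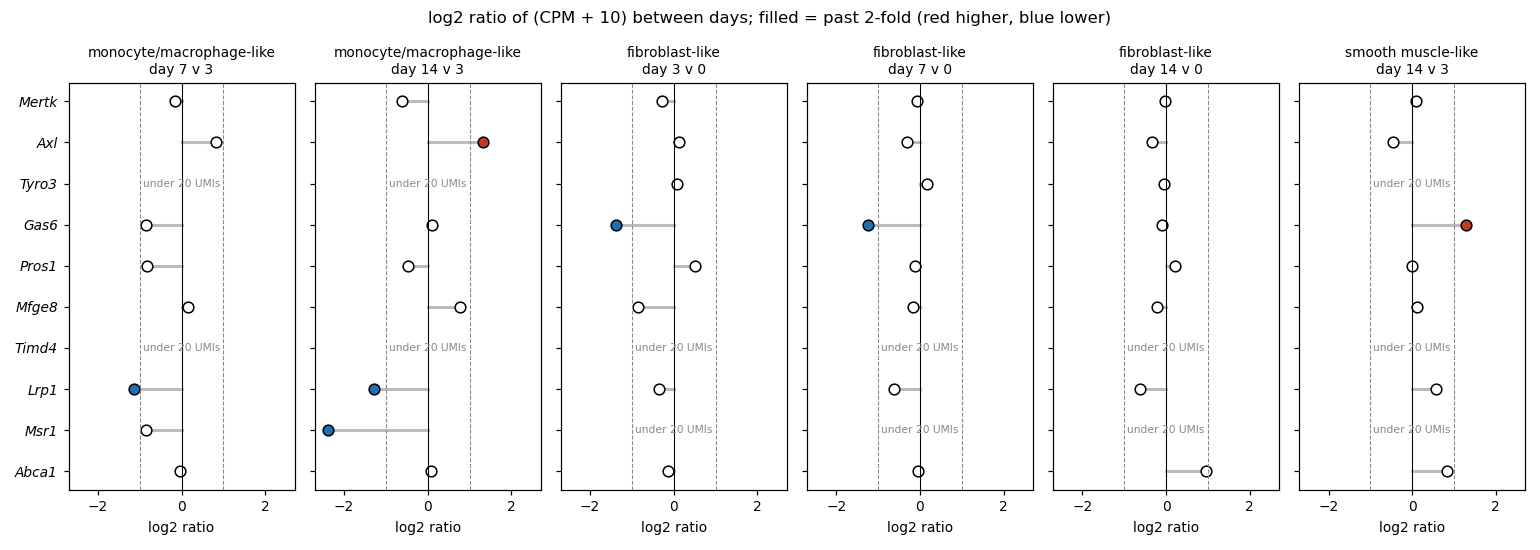
Log2 ratio of (CPM + 10) between 2 days for each of the 10 genes (horizontal axis; dashed lines at 2-fold) in 6 comparisons; filled red and blue points were past 2-fold higher and lower, open points were not, and genes under 20 UMIs carry no point. In monocyte/macrophage-like cells on day 14 against day 3 Axl lies at 1.33, Lrp1 at -1.27 and Msr1 at -2.39, and in fibroblast-like cells Gas6 lies at -1.38 on day 3 and at -0.11 on day 14 against day 0.

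In monocyte/macrophage-like cells 3 receptors differed by more than 2-fold between day 14 and day 3. Axl was past 2-fold higher, with 2.80 times the day 3 level (2.33 to 3.35). Msr1 was past 2-fold lower, at 0.162 times (0.124 to 0.208), and so was Lrp1, at 0.405 times (0.360 to 0.453). These are 3 of the 8 members with enough UMIs (37.5%), beside 5.05% of all genes compared. Mertk was lower on day 14, at 0.579 times the day 3 level (0.400 to 0.818), and Mfge8 higher, at 2.24 times (1.48 to 3.35), neither past 2-fold once 10 CPM were added. Mfge8 was called in 2 of 13 alternative analyses, with log2 ratios between 0.64 and 1.96. Gas6 at 1.08 times (0.866 to 1.34) and Abca1 at 1.07 times (0.917 to 1.23) lay within counting error, and Pros1 was at 0.666 times (0.474 to 0.919). With the CPM of single cells averaged, the Gas6 log2 ratio was 0.78 in place of 0.10, still not past 2-fold. The median log2 ratio of the 8 was -0.19 beside -0.10 over all genes. Axl, Lrp1 and Msr1 kept these calls in all 13 alternative analyses.

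By day 7 only part of this was seen. Lrp1 was already past 2-fold lower, at 0.446 times the day 3 level (0.422 to 0.471), as 1 of 8 members (12.5%) beside 2.05% of all genes. Axl stood at 1.91 times (1.66 to 2.19) and Msr1 at 0.535 times (0.496 to 0.577), both short of 2-fold. Gas6 was at 0.490 times (0.420 to 0.571) and Pros1 at 0.469 times (0.387 to 0.568), which with 10 CPM added gave log2 ratios of -0.86 and -0.84. In the class as a whole these bridging molecules were thus lowest on the middle day, while their course differed between clusters, as given below. Mertk (0.876, 0.742 to 1.04), Mfge8 (1.21, 0.896 to 1.64) and Abca1 (0.978, 0.896 to 1.07) lay within counting error. Between days 7 and 14, Msr1 was the 1 of 8 past 2-fold, at 0.302 times (0.231 to 0.389), beside 1.93% of all genes. Over the 3 days the fibroblast markers in monocyte/macrophage-like cells summed to 481, 907 and 911 CPM, and their part in these values was not tested.

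Shares of cells with a UMI were also taken after each cell was thinned to 1000 UMIs. Among monocyte/macrophage-like cells, Axl was seen in 3.8% of cells on day 3, 8.90% on day 7 and 13.9% on day 14, while Msr1 was seen in 22%, 14.7% and 4.86%. Lrp1 was seen in 42.2%, 23.2% and 23.6% of cells and Abca1 in 13.6%, 12.9% and 16.7%. Mertk was seen in 3.8%, 3.26% and 2.08%, and Gas6 in 3.4% (1.99 to 5.39), 2.38% and 9.72% (5.42 to 15.8). These rest on 500, 798 and 144 cells, with 10, 14 and 18 shallower cells left out. Without thinning the shares were 24.1%, 40.1% and 47.5% for Axl and 67.3%, 52.1% and 22.8% for Msr1, at median depths of 8093, 9814 and 8218 UMIs. Thinned T cell-like cells of day 7, whose median depth before thinning was 5595 UMIs, showed Axl in 1.82%, Lrp1 in 2.34%, Msr1 in 0.260%, Abca1 in 1.30% and Mertk in none of 385 cells.

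The make-up of the monocyte/macrophage-like class differed between days. A cluster led by Ms4a7 and C1qa, genes of mature macrophages, held 14.1% of the class on day 3, 34.7% on day 7 and 67.9% on day 14. A cluster led by Plac8 and Chil3, genes of recently recruited monocytes, held 12.0%, 44.7% and 8.64%. The cluster led by Ccl6 held 59.2%, 5.54% and 1.23%, with 302 of its 349 cells from day 3, so that it may be that library rather than a cell state. Its leading genes also included Msr1 itself, and clusters are compared here as a description.

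**Figure D3:**
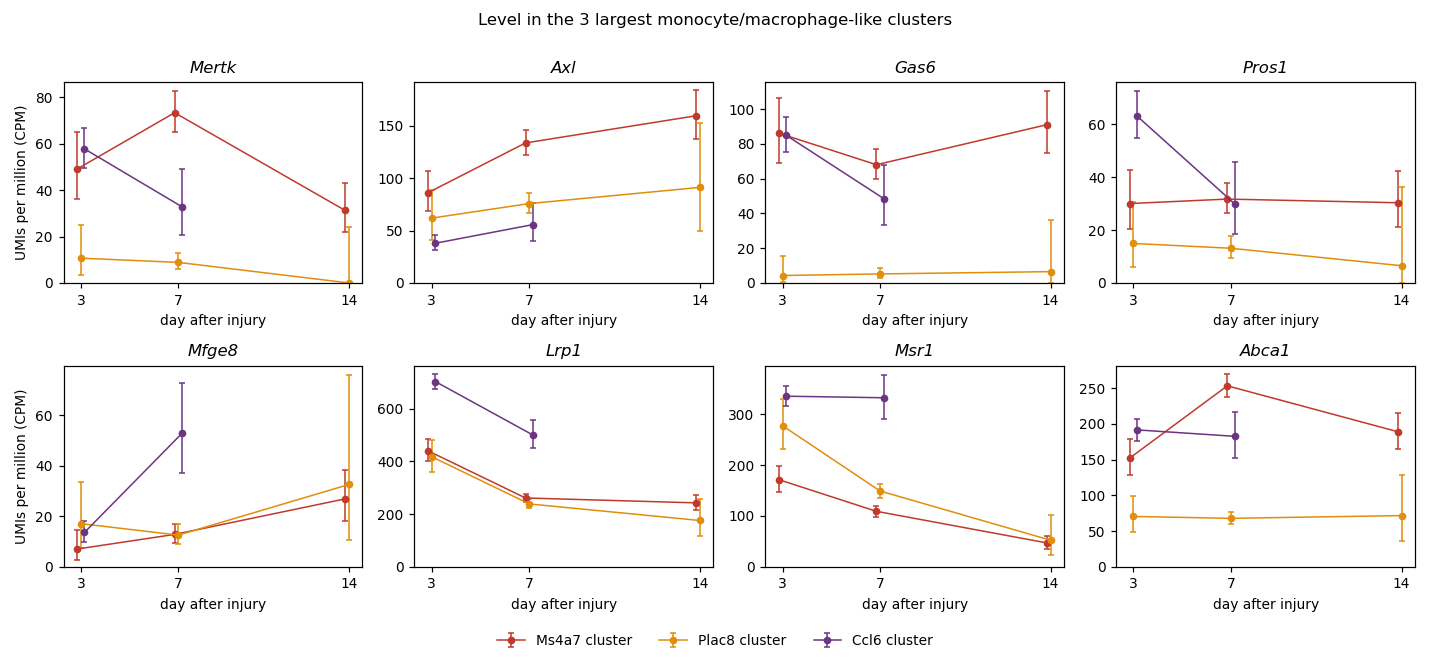
Level of 8 of the genes in CPM (vertical axes, linear) by day in the 3 largest monocyte/macrophage-like clusters, named by their leading genes Ms4a7, Plac8 and Ccl6, where a cluster held at least 10 cells that day; bars are 95% counting intervals. Mertk and Gas6 stay at 10.7 CPM or less in the Plac8 cluster, and Msr1 and Lrp1 are lower on day 7 than on day 3 in both the Ms4a7 and Plac8 clusters.

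Mertk and Gas6 separated the Ms4a7 cluster from the Plac8 cluster. On day 7 Mertk stood at 73.3 CPM (64.9 to 82.5) in the Ms4a7 cluster and at 8.85 (5.93 to 12.7) in the Plac8 cluster, an 8.28-fold difference (5.64 to 12.6). Gas6 stood at 68.0 CPM (59.9 to 76.9) and 5.19 (3.02 to 8.31), a 13.1-fold difference (8.02 to 22.8). Abca1 was 3.74-fold higher in the Ms4a7 cluster (3.23 to 4.34), Pros1 2.42-fold (1.69 to 3.51) and Axl 1.76-fold (1.51 to 2.06). Lrp1 did not differ between these clusters beyond counting error (1.09, 0.995 to 1.20), and Msr1 was lower in the Ms4a7 cluster, at 0.732 times (0.640 to 0.836). The day 3 values were alike for Mertk (4.60-fold, 1.84 to 14.8) and Gas6 (20.2-fold, 5.42 to 169, from 2 UMIs in the Plac8 cluster).

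The Ccl6 cluster of day 3 was as high in Mertk as the Ms4a7 cluster (57.8 and 49.1 CPM, ratio of Ms4a7 to Ccl6 0.850, 0.607 to 1.17) but lower in Axl, 37.9 against 86.1 CPM, a ratio of 2.27 (1.70 to 3.02). It held the most Msr1 and Lrp1, at 335 CPM (316 to 356) and 704 CPM (675 to 734). The 2 TAM receptors of these phagocytes were therefore not distributed alike across clusters.

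Within the Ms4a7 cluster alone, Axl stood at 86.1 CPM (68.9 to 106) on day 3, 134 (122 to 146) on day 7 and 160 (137 to 184) on day 14, so its day 14 level was 1.85 times that of day 3 (1.43 to 2.42) and no longer past 2-fold. Msr1 stood at 171 CPM, 109 and 46.8, and remained past 2-fold lower on day 14 than on day 3, at 0.273 times (0.197 to 0.373). Lrp1 was at 0.551 times (0.473 to 0.641), short of 2-fold. Together with Mfge8, which was 3.83-fold higher (1.66 to 10.3) from 7 UMIs on day 3, 2 of 8 members were past 2-fold in this cluster, beside 7.27% of all genes.

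Mertk took a different course within the Ms4a7 cluster than in the whole class. It stood at 49.1 CPM (36.3 to 64.9) on day 3, 73.3 on day 7 and 31.2 (21.9 to 43.2) on day 14, highest on the middle day. The day 7 level was 1.49 times that of day 3 (1.10 to 2.07), and the day 14 level 0.426 times that of day 7 (0.292 to 0.604). With Msr1 at 0.429 times (0.317 to 0.571), 2 of 8 members were past 2-fold lower on day 14 than on day 7 within the cluster, beside 0.892% of all genes. Abca1 also peaked on day 7, at 253 CPM (237 to 270) between 152 and 189. Pros1 stood at 30.0, 31.7 and 30.3 CPM on days 3, 7 and 14. Gas6 stood at 86.1, 68.0 and 91.0 CPM, its day 7 level being 0.790 times that of day 3 (0.616 to 1.02). On day 7 against day 3 none of the 8 were past 2-fold there, beside 3.68% of all genes.

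In the Plac8 cluster Lrp1 was at 0.571 times (0.488 to 0.671) and Msr1 at 0.537 times (0.442 to 0.657) on day 7 against day 3, with none of 7 members past 2-fold beside 2.11% of all genes. In the Ccl6 cluster Msr1 did not differ between these days (0.991, 0.856 to 1.14), Lrp1 was at 0.712 times (0.634 to 0.797), and Mfge8 alone was past 2-fold higher, 3.89-fold (2.44 to 6.18), as 1 of 8 beside 4% of all genes. In the class on day 7, 32 of 139 Mfge8 UMIs lay in 1 cell, and 90 of 1309 Msr1 UMIs in 1 cell. Whether such cells weighed on these values was not tested. Gas6 was at 0.571 times (0.388 to 0.818) and Pros1 at 0.475 times (0.287 to 0.746) in the Ccl6 cluster. In the Plac8 cluster both lay within counting error. In the Ms4a7, Plac8 and Ccl6 clusters Lrp1 was thus lower on day 7 by less than in the class as a whole. In the small cluster led by Ifit1 it was past 2-fold lower, at 0.321 times (0.197 to 0.531), as 1 of 3 members beside 11% of all genes. On day 14 against day 3 the Plac8 cluster, then with 14 cells, had Lrp1 (0.420, 0.270 to 0.631) and Msr1 (0.188, 0.0794 to 0.381) past 2-fold lower, 2 of 4 members beside 10% of all genes.

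The fibroblast-like class was made of different clusters on each day: one led by Rbp4 held 77.4% of it before injury and 2.68%, 0.476% and 5.87% on days 3, 7 and 14, and one led by Eln held 9.74%, 50.9%, 56.2% and 36.6%. In the class as a whole Gas6 was past 2-fold lower on day 3 and on day 7 than before injury, at 0.380 times (0.356 to 0.404) and 0.418 times (0.395 to 0.442), and within 2-fold on day 14 (0.928, 0.886 to 0.973). In the first 2 of these contrasts Gas6 was the 1 call among 8 members, beside 7.66% and 7.94% of all genes, so the counts are no result about the members. On day 14 against day 0 there were 0 of 8, beside 4.01%. Mfge8 was at 0.537 times (0.478 to 0.602) on day 3 and Lrp1 at 0.644 times (0.611 to 0.678) on day 7 and 0.649 times (0.619 to 0.682) on day 14. Over 13 alternative analyses the Mfge8 log2 ratio ran from -0.89 to -0.11, the latter with a mitochondrial share of up to 10%, and that of Lrp1 on day 7 from -0.75 to -0.069, the latter with cells over 30000 UMIs left out. Abca1 was 2.20-fold higher on day 14 than before injury (1.73 to 2.82), a log2 ratio of 0.95 with 10 CPM added and so just inside the limit. Against day 3, the day 14 levels of Gas6 (2.45 times, 2.32 to 2.58) and Abca1 (2.51 times, 2.09 to 3.03) were past 2-fold higher, 2 of 8 members beside 5.21% of all genes. In cells of up to 30000 UMIs neither was, with Gas6 at 958 CPM on day 14 and 1056 on day 3 (765 without 5 cells of the cluster led by Saa3) and Abca1 at 82.7 and 50.1, and there 0 of 8 members were past 2-fold beside 5.35% of all genes. Against day 0, Axl lay within counting error on day 3 (1.10, 0.995 to 1.22) and at 0.785 times (0.712 to 0.868) on day 14.

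Whether Gas6 was lower on day 3 than on day 0 depended on the depth of the cells. In cells of up to 30000 UMIs the ratio was 1.02 (0.932 to 1.12). On day 3, 61 of the 112 fibroblast-like cells held over 30000 UMIs and 87.6% of the class's UMIs, and on day 7, 93 of 210 cells held 80.0%, whereas no cell of day 0 was that deep. Gas6 stood at 298 CPM (282 to 316) in the deep cells of day 3 and at 1056 CPM (972 to 1144) in the other 51. Of the 590 Gas6 UMIs of these 51 cells, 232 lay in 5 cells of the cluster led by Saa3, at 2549 CPM (2232 to 2899). The other 46 held 765 CPM (688 to 849), below the 1033 CPM of day 0 at 0.741 times (0.661 to 0.828), a split chosen after seeing the data. On day 7 the deep cells held 378 CPM (361 to 395) and the others 647 (602 to 694), below day 0 in both. On day 14 depth made no difference to Gas6, with 963 and 958 CPM. With the deep cells left out, the log2 ratio of day 3 to day 0 was 0.031 in place of -1.38, and -0.43 with those 5 cells left out too. Those 5 cells were set apart after their high Gas6 was seen, so leaving them out could only lower the day 3 level. No direction is drawn from that split. The day 7 call held in 7 of 13 alternative analyses, with log2 ratios between -1.29 and -0.67.

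**Figure D4:**
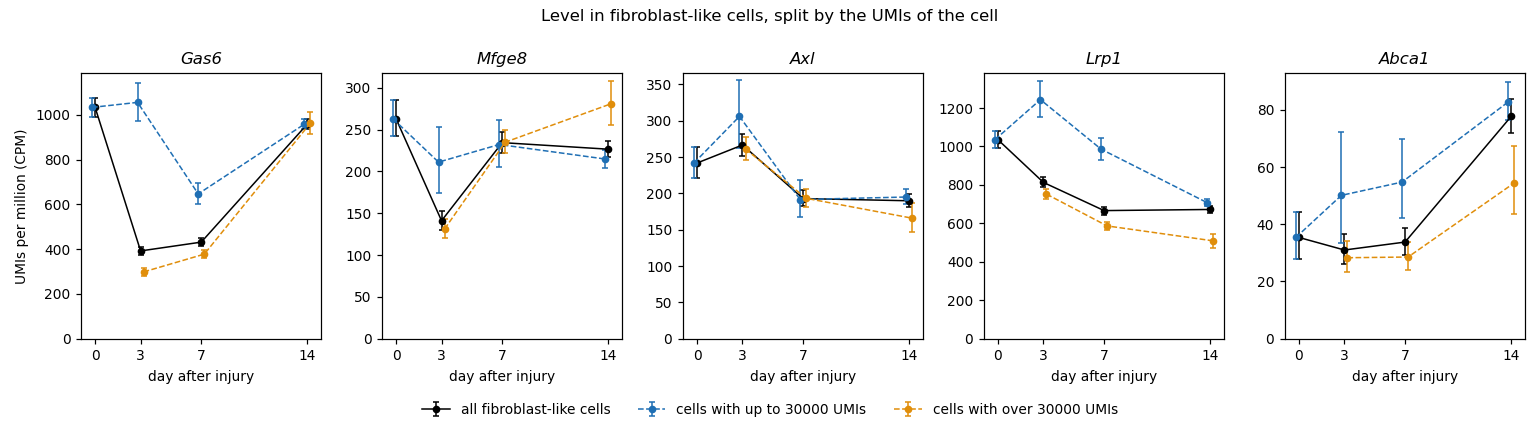
Level in CPM (vertical axes, linear) of Gas6, Mfge8, Axl, Lrp1 and Abca1 in fibroblast-like cells by day, for all cells, cells of up to 30000 UMIs and cells above that; bars are 95% counting intervals. On day 3 the Gas6 level is 298 CPM in the deep cells and 1056 CPM in the others, while Axl differs little, at 261 and 306 CPM.

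Lrp1 and Abca1 were also lower in the deep fibroblast-like cells on each day that had them. Lrp1 stood at 752 against 1244 CPM on day 3, 587 against 986 on day 7 and 509 against 708 on day 14. Abca1 stood at 28.3 against 50.1 CPM, 28.5 against 54.7 and 54.4 against 82.7. Mfge8 was lower in deep cells on day 3 (131 against 211 CPM), alike on day 7 (235 and 232 CPM) and higher on day 14 (281 CPM, 256 to 308, against 215, 204 to 226). Axl was at 193 and 192 CPM on day 7. The deep cells thus differed from the others in some of these genes and not in others. In the fibroblast-like cells of up to 30000 UMIs, Abca1 was past 2-fold higher on day 14 than on day 0, as 1 of 8 members beside 3.85% of all genes.

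Gas6 and Axl set a fibroblast-like cluster apart from the others of at least 50 cells. It was led by Igfbp5 and Sema3c, also had Pi16 and Cd248 among its leading genes, and held 25 cells on day 0 and 46 on day 14. Its Axl level was 671 CPM (593 to 755) on day 0 and 654 (602 to 709) on day 14, and its Gas6 level 111 CPM (80.9 to 148) and 79.6 (62.2 to 100). The Rbp4 cluster was the opposite, with Axl at 143 CPM (125 to 162) and 124 (92.5 to 162) and Gas6 at 1166 CPM (1114 to 1219) and 1701 (1579 to 1831). Between these clusters Axl differed by a ratio of 0.213 (0.178 to 0.255) and Gas6 by 10.5 (7.82 to 14.5) on day 0, Rbp4 to Igfbp5, and the day 14 library gave 0.190 (0.140 to 0.252) and 21.4 (16.7 to 27.7). Of these clusters, the Igfbp5 cluster was thus the higher in Axl and the Rbp4 cluster in Gas6, in both libraries that held enough cells of each. On day 0 the Eln cluster, described next, held more Gas6 than either.

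**Figure D5:**
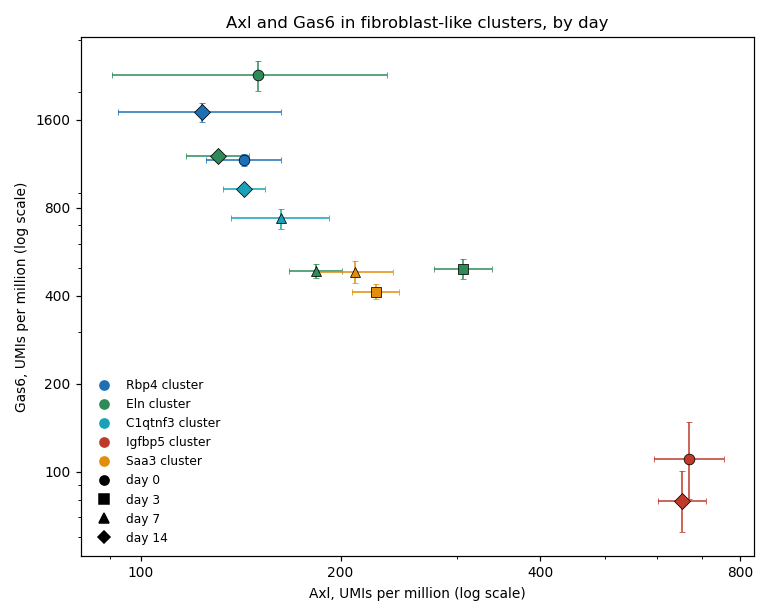
Axl level (horizontal axis) against Gas6 level (vertical axis), both in CPM on log axes, for the 5 fibroblast-like clusters of at least 50 cells on each day with at least 10 of their cells; bars are 95% counting intervals. The Igfbp5 cluster lies at the lower right on days 0 and 14 (Axl 671 and 654 CPM, Gas6 111 and 79.6 CPM), apart from the other 4 clusters, whose Gas6 levels lie at 413 CPM or more.

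The remaining fibroblast-like clusters of at least 50 cells held less Axl than the Igfbp5 cluster and more Gas6. A smaller one led by Lcn2 and Vcam1, with 22 cells on day 7, was low in both, with Axl at 150 CPM (129 to 174) and Gas6 at 109 CPM (91.2 to 129). The cluster led by Eln, present on each day, held Gas6 at 2270 CPM (2015 to 2548) on day 0 in 19 cells, 493 (455 to 533) on day 3, 486 (459 to 513) on day 7 and 1204 (1162 to 1247) on day 14. Its Axl level was 150 CPM (90.5 to 235), 306 (277 to 338), 184 (168 to 201) and 131 (117 to 145). Within this cluster Gas6 was thus lower on day 3 than on day 0, at 0.217 times (0.189 to 0.251), while Axl was higher, 2.04-fold (1.29 to 3.42), and on day 14 against day 3 the order was the reverse, with Gas6 at 2.44 times (2.24 to 2.66) and Axl at 0.427 times (0.368 to 0.495). No cell of day 0 was over 30000 UMIs. In the 39 cells of day 3 up to that depth Gas6 stood at 795 CPM (712 to 884), still below day 0, and below the 1193 CPM (1149 to 1239) of such cells on day 14, while Axl stood at 336 CPM (283 to 396). The cluster led by C1qtnf3, seen on days 7 and 14 only, held Gas6 at 736 and 928 CPM and Axl at 163 and 143 CPM. The cluster led by Saa3, seen on days 3 and 7 only, held Gas6 at 413 and 484 CPM and Axl at 226 and 210 CPM. Its median depth was 55775 UMIs.

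The higher Abca1 of day 14 was seen in several clusters. Against day 0 it was 2.39-fold higher in the Rbp4 cluster (1.5 to 3.76), 2.66-fold in the Igfbp5 cluster (1.65 to 4.52) and 3.12-fold in the Eln cluster (1.05 to 15.3, from 3 UMIs on day 0). In Eln cluster cells of up to 30000 UMIs the day 7 level was already close to that of day 14, at 73.8 CPM (55.6 to 96.1) and 78.9 (67.8 to 91.3). In the C1qtnf3 cluster the day 14 level was 2.06 times that of day 7 (1.41 to 3.13). Lrp1 differed by cluster, at 1.02 times its day 0 level in the Rbp4 cluster (0.912 to 1.13) and 0.644 times in the Igfbp5 cluster (0.571 to 0.727) on day 14.

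In smooth muscle-like cells Gas6 was past 2-fold higher on day 14 than on day 3, at 2.54 times (2.23 to 2.90), the 1 call among 7 members beside 5.2% of all genes. It was already 2.78-fold higher on day 7 (2.44 to 3.17). On that day Abca1 was also past 2-fold, at 8.14 times (4.34 to 16.4), making 2 of 8 members beside 2.42% of all genes. On day 14 against day 3, Mertk (1.08, 0.776 to 1.48) lay within counting error and Axl was at 0.710 times (0.601 to 0.835). Deep cells weighed here too, since 38 of the 95 cells of day 3 held over 30000 UMIs and 81.1% of the class's UMIs. Gas6 stood at 130 CPM in these and 251 CPM in the others, against 402 and 450 CPM on day 7 and 367 and 400 CPM on day 14. Among cells of up to 30000 UMIs the day 7 level was thus less than 2-fold above that of day 3, and without the deep cells the day 14 ratio was no longer past 2-fold. Fibroblast markers in smooth muscle-like cells summed to 8800 CPM on day 3, 16704 on day 7 and 9723 on day 14, with all 10 detected, and their part in Gas6 was not tested.

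Comparisons with the smooth muscle-like cells of day 0 rest on 12 cells. Mertk was past 2-fold lower on day 3, at 0.432 times (0.227 to 0.923), as 1 of 6 members beside 10.8% of all genes, from 10 UMIs on day 0. No cell of day 0 was over 30000 UMIs, and the day 3 cells up to that depth held 64.1 CPM (44.1 to 90.0) against 100 (48.2 to 185), short of 2-fold. On day 7 Pros1 (5.04-fold, 1.37 to 42.1, from 2 UMIs on day 0) and Abca1 (48 UMIs against 0) were past 2-fold higher, 2 of 7 members beside 8.85% of all genes. On day 14 there were 0 of 7, beside 6.42%, with Pros1 at 3.60 times (0.970 to 30.2). In cells of up to 30000 UMIs Pros1 was past 2-fold higher on days 3 (4.45-fold, 1.16 to 37.8) and 14 (4.23-fold, 1.13 to 35.6) too. It was 1 of 6 members on each of these days, beside 10.2% and 6.59% of all genes, again from 2 UMIs on day 0.

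Dendritic-like cells had 0 of 8 members past 2-fold on day 7 against day 3, beside 1.2% of all genes. On day 14, with 43 cells, Lrp1 was past 2-fold lower at 0.328 times (0.167 to 0.583), and so was Pros1, from 1 UMI (0.131, 0.00324 to 0.759), beside 6.54% of all genes. Endothelial-like cells had Mertk (3.49-fold, 1.11 to 17.7), Pros1 (4.39-fold, 1.42 to 22.0) and Abca1 (3.17-fold, 1.28 to 10.1) past 2-fold higher on day 7 than on day 3, each from 5 or fewer UMIs on day 3, as 3 of 6 members beside 14.2% of all genes. On day 14 against day 3, Gas6 (2.67-fold, 1.02 to 6.61) and Abca1 (12.4-fold, 4.30 to 43.7) were past 2-fold higher, 2 of 3 members beside 30.2% of all genes. Fibroblast markers in endothelial-like cells summed to 861, 1875 and 2413 CPM on days 3, 7 and 14, and their part in these values was not tested. The median depth on these days was 1112.5, 1706 and 876 UMIs, beside 201021, 748683 and 48489 UMIs in all. The part of the deepest cells was not tested either.

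The whole-library levels mix these classes. Against day 0, Gas6 was at 0.168 times (0.159 to 0.178) on day 3 and 0.158 times on day 7, when far fewer of the cells were fibroblast-like. Msr1 gave 1 UMI in the day 0 library and 1513 on day 3, a ratio of 218 (39.0 to 8605). These were the 2 of 9 members past 2-fold on day 3, beside 13.1% of all genes. On day 7 there were 6 of 10, beside 14.8%: Msr1 and Abca1 higher, Axl, Gas6, Mfge8 and Lrp1 lower. On day 14 Abca1 alone was past 2-fold, 2.49-fold higher (1.99 to 3.16), as 1 of 9 beside 5.12%.

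The other genes of the pathway were followed as a list of 51, made of further receptors, bridging and eat-me molecules, do-not-eat-me and find-me signals, engulfment genes, genes acting after uptake, and genes that shed or restrain the receptors. In monocyte/macrophage-like cells on day 14 against day 3, 7 of 43 were past 2-fold higher and 4 lower, beside 2.48% and 2.58% of all genes. Among those higher were Apoe, the acceptor of cholesterol exported by Abca1 (20802 against 8196 CPM), Cx3cr1, the receptor of the find-me signal fractalkine (553 against 175 CPM), Cd14, a receptor for dying cells that was also a class marker (1818 against 606 CPM), and Socs3, a restraint on cytokine signalling (544 against 165 CPM). C1qa, C1qc and Pparg completed them. Those lower were Thbs1, a bridging molecule (99.7 against 612 CPM), Cd36, its receptor (44.5 against 142 CPM), Cd300lf, a phosphatidylserine receptor (20.8 against 82.5 CPM), and the do-not-eat-me molecule Cd24a (8.60 against 41.6 CPM). On day 7 against day 3, 1 of 45 was higher (Socs3) and 3 lower (Stab1, Cd36 and Cd24a), beside 1.22% and 0.831% of all genes.

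In fibroblast-like cells on day 3 against day 0, 1 of 33 was past 2-fold higher and 2 lower, together 9.09% of the list beside 7.66% of all genes. Apoe was the furthest apart, at 276 CPM against 2758, and Itgb5, an integrin subunit that serves as the Mfge8 receptor, stood at 144 against 327 CPM. Thbs1 had no UMI in fibroblast-like cells before injury and stood at 34.5, 424 and 102 CPM on days 3, 7 and 14. On day 7 against day 0, 4 of 39 were higher and 1 lower, together 12.8% beside 7.94% of all genes, and on day 14 2 of 35 were higher and none lower, beside 2.4% and 1.62%. In smooth muscle-like cells on day 14 against day 3, 2 of 29 were higher, Apoe (324 against 23.1 CPM) and Socs3, and 3 lower, Thbs1 (197 against 1035 CPM), Adam10, a sheddase, and Sirpa, beside 1.97% and 3.23% of all genes. Over the 3 classes, Socs3 was higher on day 14 than on the reference day in each.

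Each gene was last set beside the other 7413 genes that reached 50 CPM in at least 1 of 24 class-day groups of 20 or more cells, by Pearson's r of the log2 level. These are descriptions, since groups of one day share a library. Msr1 was most like Chil3 (r = 0.96), C3ar1 and Ccl12, each highest in monocyte/macrophage-like cells of day 3. Mfge8 was most like 2310022B05Rik (0.97), Samd4 and Foxc1. Gas6 was most like Pmp22 (0.96), Rassf8 and Nenf, whereas Axl had Mt1 (0.93) and Nupr1 (0.92) among the genes most like it, and Pros1 was most like Nupr1 (0.94). Lrp1 was most like Mt1 (0.93), Cd302 and Itgb5. Abca1 had Apoe closest to it (0.87) with the next, Tmem86a, at 0.74, and Mertk had Cbr2 (0.88). Among the members themselves, Axl followed Pros1 (0.91) and Gas6 (0.84) more closely than it followed Mertk (0.53).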

How the data were processed

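Single-cell suspensions of carotid arteries were measured by droplet 3′ sequencing, with 1 library per day. The deposited files hold UMI counts per gene and barcode, which the authors made with Cell Ranger (version 3.0.2 in the file headers) and deposited unnormalized. The mouse build is not clear in the sources used here, so no coordinates were taken from the files.

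Barcodes with at least 200 genes and at most 20% mitochondrial UMIs were kept. Scrublet marked 17 barcodes (0.276%) at its own threshold, so 106 were removed by rank, at 0.8% per 1000 barcodes. The shallower copy of a barcode found in 2 libraries was removed where it held at most 10% of the UMIs of the deeper one, a rule chosen after seeing the data. Cells were clustered (scanpy 1.11.5, Leiden algorithm, leidenalg 0.10.2, resolution 1) on 2000 variable genes, 30 principal components and 15 neighbours, leaving out the 10 genes and the pathway list. A cluster was named from at least 3 of its class's markers. In all 51 clusters gave 9 classes, and a class was used on days with at least 10 cells. Levels carry exact Poisson and ratios exact binomial 95% intervals (scipy 1.17.1). The comparison code was tested on simulated data.

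All 10 genes are named, and from the pathway list up to 8 genes with the largest ratios past 2-fold in each main comparison, and the genes most like a member are the 3 with the highest r. Some genes that these rules name are not reported here. The members and lists were chosen with earlier results of these data known. Alternatives varied the summing of cells, the filters on doublets, mitochondrial share and depth, the clustering, the pseudocount, the centring and the count minimum.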

Additional observations from a re-analysis of the deposited data

How the results depend on the processing

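No paired analysis was possible because each time point had 1 library, and leaving out a library would empty its day. With 1 library per day, animal, handling and day cannot be told apart, and all intervals cover counting only. Genes under 20 UMIs over both groups were not compared, and levels near those of T cell-like cells, such as Mfge8 in monocyte/macrophage-like cells, cannot be separated from background.

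In monocyte/macrophage-like cells, Lrp1 on day 7 (log2 ratio -1.22 to -1.04) and Axl (1.19 to 1.67), Lrp1 (-1.43 to -1.17) and Msr1 (-2.65 to -2.29) on day 14 against day 3 were called in 13 of 13 alternatives. The number of members called on day 7 against day 3 was 1 of 8, beside 2.05% of all genes. It became 2 with no doublet removal (Lrp1, Msr1), 3 with 1 CPM added (Gas6, Pros1, Lrp1) and 4 with each library clustered on its own (Axl, Gas6, Lrp1, Msr1), beside 2.19%, 6.81% and 2.43% of all genes. Gas6 in fibroblast-like cells on day 3 against day 0 had a log2 ratio of 0.031 with cells over 30000 UMIs left out. This changed its sign, and at the other end the ratio was -1.85. Leaving out 5 further cells of the cluster led by Saa3 as well gave -0.43. They were set apart after their high Gas6 was seen, so that value decides no direction. Next come 2 settings: cells over 30000 UMIs left out, and the CPM of single cells averaged. Under either, fibroblast-like cells against day 0 had a count of 0 on day 3, 0 on day 7 and 1 (Abca1) on day 14. In smooth muscle-like cells on day 14 against day 3 the count was 0. With the deep cells out these counts stood beside 6.1%, 9.46%, 3.85% and 4.87% of all genes. For these classes with averaged CPM, and for the further counts of 0 below, no share is given, so they are no result about the members. In the whole library on day 3 the settings gave 6 and 5 in place of 2, beside 22.4% and 20.8% of all genes. In fibroblast-like cells on day 7 against day 0 the main count was 1, beside 7.94% of all genes, and so no result about the members. The count there was also 0 with no doublet removal, at Leiden resolution 0.6, and with each library clustered on its own. So it was without the clusters that were split once more, an alternative chosen after seeing the data. In smooth muscle-like cells on day 14 against day 3 it was 0 with a mitochondrial share of up to 10% and 2 (Gas6, Abca1) with 1 CPM added, which also gave 1 (Abca1) in fibroblast-like cells and 2 (Msr1, Abca1) in the whole library on day 14 against day 0, beside 12.5%, 10.7% and 14.0% of all genes. Of the 75 log2 ratios of members, 18 changed sign under at least 1 alternative, 1 of them among the 16 called. The cause of these shifts was not tested.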
